A study of Mus musculus with 2 samples.

Results

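Type I interferon response genes are the genes that cells switch on when interferon alpha or beta binds its receptor. A list of 40 of them was read in CD8 T cells of the mouse spleen, the cytotoxic lineage of T lymphocytes. All 40 were present among the 33696 genes of both deposited matrices. The study compared wild-type C57BL/6 mice given dehydroepiandrosterone (DHEA), an androgen precursor used to model polycystic ovary syndrome, with mice given its carrier. DHEA was injected under the skin every day for 21 days at 40 mg/kg in 20 µL of sesame oil, and the control (CTRL) mice received the oil alone on the same schedule. Magnetic beads were used to isolate the CD8 T cells, and 1 droplet single-cell library was made per group. The design text describes the isolated cells as pooled, and how many animals each library stands for was not given in the sources used here. With 1 library per group no test could be run, so each value below carries a 95% interval of counting error only, and treatment cannot be told apart from animal, handling or library.

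Interferon binding at the IFNAR1-IFNAR2 receptor activates the kinases JAK1 and TYK2, and a complex that includes STAT2 and IRF9 then binds a promoter element called the ISRE. The genes under it encode nucleic acid sensors, enzymes that stop viral replication, and factors such as IRF7 and USP18 that raise or restrain the response itself. T cells carry a low level of many of these transcripts at rest, called tonic, and a cell that has met interferon recently carries far more of them. Both were therefore read separately: the level over all cells, the share of cells with many interferon transcripts, and the level in the cells that remain.

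The genes were read in cells with at least 200 detected genes, under 10% mitochondrial transcripts and transcripts of both Cd8a or Cd8b1 and Cd3d, Cd3e or Cd3g. This left 8717 CTRL cells with 49239407 unique molecular identifiers (UMIs, each 1 captured transcript) and 10699 DHEA cells with 50077687, at medians of 5615 and 4483 UMIs per cell. Cd8b1 was found in 97.5% and 96.5% of them, whereas Cd4 had 3 and 4 UMIs in all. All 6 markers of CD8 T cells were present, at a summed 4232 CPM (UMIs per 1000000 UMIs) in CTRL and 4940 CPM in DHEA. The 5 markers of memory cells summed to 925 CPM in CTRL against 2009 in DHEA, and the 4 naive markers to 2192 and 2132 CPM. Markers of other lineages were low except in the B cell list, at 266 and 287 CPM, nearly all of it Ighm. The summed levels were 6.48 and 11.02 CPM for 6 myeloid markers, 15.1 and 33.5 CPM for 3 natural killer markers and 4.94 and 3.33 CPM for 3 markers of plasmacytoid dendritic cells, a major source of type I interferon. As an alternative, the 166 CTRL and 171 DHEA cells with a UMI of Lyz2, Csf1r, Siglech, Cd79a, Ms4a1, Ncr1 or Klrb1c were left out. This turned no sign over all cells and gave a median log2 ratio of -0.12 over the 40 genes, as with them. Cells with UMIs of the other markers alone were kept, and Klre1 was found in 2.63% of CTRL and 6.08% of DHEA cells. Results within groups of cells were not repeated without the 166 and 171 cells, and the part of Ighm and of free RNA was not tested. The libraries had 51 barcodes in common.

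The ISRE is shown first because it is the element these genes are known for. RefSeq promoter windows (GRCm38.p6, 250 bases before to 50 after the start site) were matched by symbol for 31 of the 40 genes. Zbp1, Dhx58, Mx1, Usp18, Oas2, Parp14, Ifi27l2a, Parp9 and Rtp4 had no entry. The letters of the ISRE were taken as GAAA and again GAAA with any 2 bases between them, searched on both strands. They stood in a window of 17 of the 31 (54.8%), compared with 1079 of 27025 genes with a window (3.99%). The letters TTCNNNGAA of the GAS, an element known from the response to interferon gamma, stood in 5 of 31 (16.1%) against 9.55% of all genes. Bst2 and Eif2ak2 had both motifs, and in Bst2 a match of one overlapped a match of the other. The 250 bases before the start are given below for 4 genes that hold the motif and marked responding cells, defined further on, steeply, and for Slfn1, which marked them less and does not. The printed genes were picked after values were seen, and the 4 are among the genes that define responding cells. Over the 31 genes, those with and without the motif marked responding cells about as steeply at the median, with values given further on. Sequences run 5′ to 3′ on the gene's strand, and capitals mark matches to the ISRE letters on either strand.
Isg15, chr4:156200819-156201068, minus strand: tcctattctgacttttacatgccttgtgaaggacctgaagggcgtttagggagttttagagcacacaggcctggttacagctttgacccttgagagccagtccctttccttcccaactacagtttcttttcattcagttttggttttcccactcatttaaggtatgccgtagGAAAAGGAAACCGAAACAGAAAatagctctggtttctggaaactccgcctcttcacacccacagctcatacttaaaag
Ifit1, chr19:34640639-34640888, plus strand: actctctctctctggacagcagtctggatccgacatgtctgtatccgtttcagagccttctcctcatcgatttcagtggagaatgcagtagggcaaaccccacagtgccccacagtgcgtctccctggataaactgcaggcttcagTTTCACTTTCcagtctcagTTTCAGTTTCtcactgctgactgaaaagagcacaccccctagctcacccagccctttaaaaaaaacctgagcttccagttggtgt
Ifit3, chr19:34583279-34583528, plus strand: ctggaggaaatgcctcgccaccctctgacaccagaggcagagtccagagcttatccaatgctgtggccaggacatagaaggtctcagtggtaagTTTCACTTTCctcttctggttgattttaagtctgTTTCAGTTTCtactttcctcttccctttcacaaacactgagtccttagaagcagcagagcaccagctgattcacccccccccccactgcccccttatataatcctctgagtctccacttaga
Rsad2, chr12:26456453-26456702, minus strand: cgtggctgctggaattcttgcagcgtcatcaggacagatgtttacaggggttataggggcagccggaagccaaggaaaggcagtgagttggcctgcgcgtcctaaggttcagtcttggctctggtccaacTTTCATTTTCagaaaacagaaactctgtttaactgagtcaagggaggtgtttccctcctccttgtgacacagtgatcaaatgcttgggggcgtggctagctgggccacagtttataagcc
Slfn1, chr11:83116570-83116819, plus strand: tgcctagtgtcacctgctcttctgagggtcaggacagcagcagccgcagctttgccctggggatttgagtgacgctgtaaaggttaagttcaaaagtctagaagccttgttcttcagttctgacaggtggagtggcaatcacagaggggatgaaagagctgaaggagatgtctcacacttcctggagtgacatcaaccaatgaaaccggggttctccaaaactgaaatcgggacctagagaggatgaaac
In Isg15, 3 matches overlapped in 1 run. Ifit1 and Ifit3 had 2 separate matches each, read on the opposite strand, and Rsad2 had 1. The window of Ifit3b, a near copy of Ifit3, shared an unbroken run of 169 bases with that of Ifit3, and reads of such a pair can be split between them by the authors' counting. A match is a description of letters and was not tested as a binding site.

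Over all cells, the interferon genes did not move as a block between the libraries. Of the 40, 13 were higher in DHEA and 27 lower, compared with 49.5% higher and 50.5% lower among the 10515 genes with at least 200 UMIs. Usp18 and Oas2 were at least 1.5-fold higher (2 of 40, against 1.81% of all measured genes) and none was at least 1.5-fold lower (1.44% of all). The median log2 ratio of DHEA over CTRL was -0.12 over the 40 genes and -0.00 over all measured genes. The direction split within most families. A UMI marks 1 captured 3′ end, so levels between genes were not scaled by length.

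**Figure D1:**
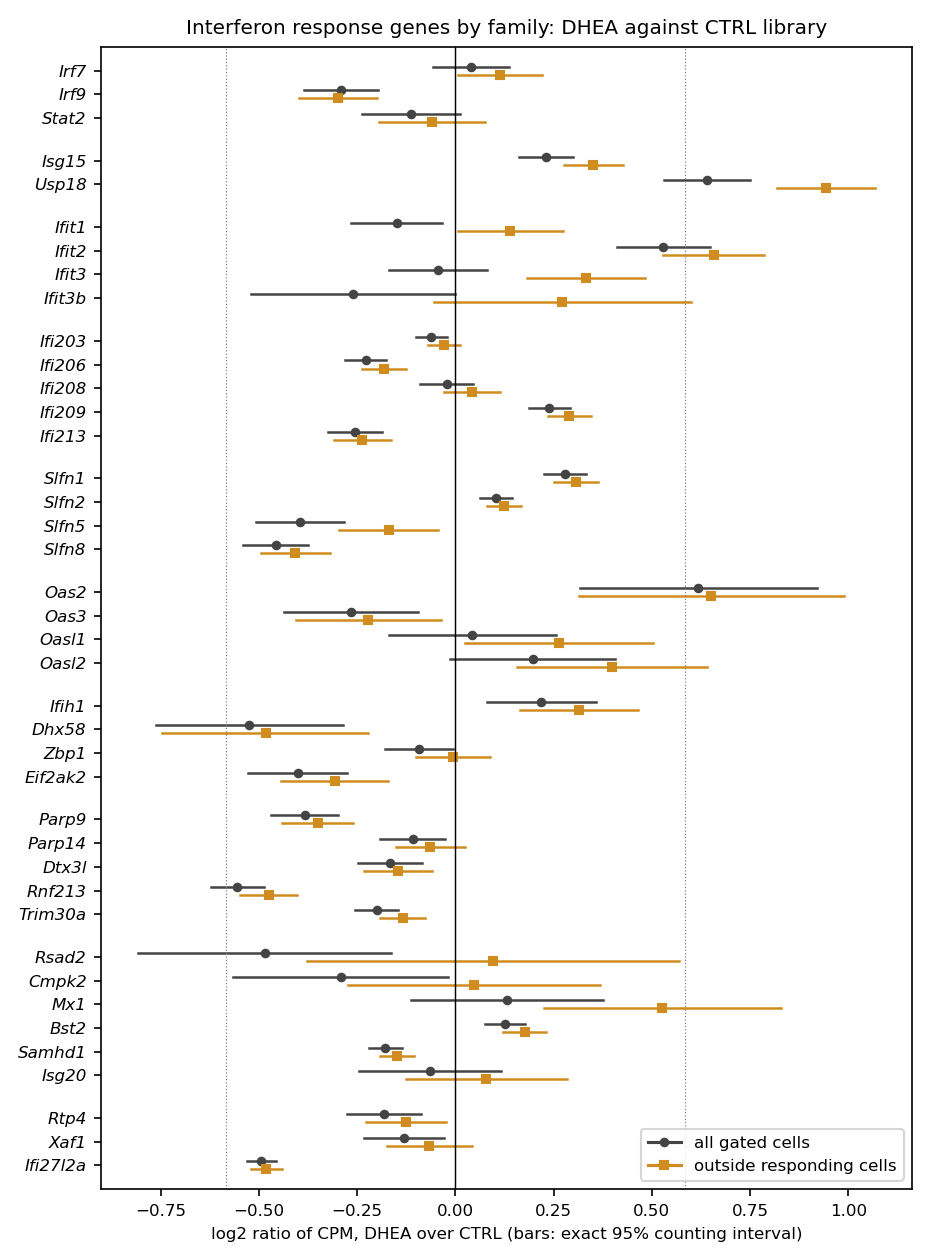
Log2 ratio of CPM, DHEA over CTRL (horizontal axis), for each of the 40 genes by family, over all gated cells (circles) and over the cells outside the responding group (squares). Bars are exact 95% counting intervals of 1 library per group and dotted lines mark 1.5-fold; Usp18 lay at 0.64 over all cells and 0.94 outside, and Rnf213 at -0.56 and -0.48.

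The ISG15 system had both of its members higher. ISG15 is a ubiquitin-like protein that is attached to other proteins, and USP18 removes it and also dampens signalling at the interferon receptor. Usp18 stood at 22.5 CPM (21.2 to 23.8) in CTRL against 35.0 (33.4 to 36.7) in DHEA, giving a log2 ratio of 0.64 (0.53 to 0.75). Isg15 stood at 63.2 CPM in CTRL against 74.1 in DHEA, giving a log2 ratio of 0.23 (0.16 to 0.30). In both genes the DHEA library was the higher by more than its counting error.

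The IFIT proteins bind viral RNA and block its translation. Ifit2 was the single member of the family that was higher, at 19.5 CPM in CTRL against 28.2 in DHEA, giving a log2 ratio of 0.53 (0.41 to 0.65). Ifit1 was at 25.8 and 23.3 CPM, Ifit3 at 21.5 and 20.8 CPM and Ifit3b at 5.50 and 4.59 CPM, with log2 ratios of -0.15, -0.04 and -0.26. Ifit2 thus parted from its neighbours in the family, and the interval of Ifit3 included 0, with its sign turned when per-cell fractions were averaged.

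The OAS enzymes make the 2-5A messenger that activates RNase L, and the related OASL1 lacks this activity. Oas2 was at 3.09 CPM (2.62 to 3.62) in CTRL against 4.73 (4.15 to 5.38) in DHEA, giving a log2 ratio of 0.62 (0.32 to 0.92) from 152 and 237 UMIs. Its ratio was 0.55, under 1.5-fold, with a mitochondrial limit of 5% and likewise without cells under 10% ribosomal protein UMIs. Oas3 went the other way, at 12.6 and 10.4 CPM, giving a log2 ratio of -0.27 (-0.44 to -0.09). Oasl1 and Oasl2 had ratios of 0.04 and 0.20 with intervals that included 0.

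The Schlafen genes, of which Slfn2 is known for keeping T cells quiescent, split in pairs. Slfn1 was at 103 CPM in CTRL against 125 in DHEA, giving a log2 ratio of 0.28 (0.23 to 0.33), and Slfn2 at 186 and 199 CPM, a ratio of 0.10 (0.06 to 0.14). Slfn5 was at 30.3 and 23.1 CPM, a ratio of -0.40 (-0.51 to -0.28), and Slfn8 at 56.9 and 41.4 CPM, a ratio of -0.46 (-0.54 to -0.37). The 4 intervals excluded 0, so the split was larger than counting error, although Slfn2 was on the other side of 0 after a correction for genomic span. The p200 family, which includes DNA-binding proteins of the nucleus and cytosol, had 1 gene higher and 4 lower. Ifi209 was higher, at 111 CPM in CTRL against 131 in DHEA (log2 ratio 0.24, 0.19 to 0.29). Ifi206 was at 124 and 106 CPM (-0.23), Ifi213 at 75.7 and 63.3 CPM (-0.26) and Ifi203 at 213 and 204 CPM (-0.06). Ifi208 was at 72.2 and 71.1 CPM (-0.02), with an interval that included 0. The p200 genes share sequence, so reads that fit several of them could be split among them by the authors' counting.

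Genes of ADP-ribosylation and ubiquitin transfer were the one larger family in a single direction, with 5 of 5 lower in DHEA, beside 50.5% of all measured genes. The families were formed after values were seen, so this count describes these 5 genes and not such genes in general. Rnf213, a giant ubiquitin ligase, was at 86.5 CPM (84.0 to 89.2) in CTRL against 58.9 (56.8 to 61.1) in DHEA, the lowest ratio of the 40 at -0.56 (-0.62 to -0.49). Parp9 was at 51.8 and 39.7 CPM (-0.38), and its partner ligase Dtx3l at 52.0 and 46.3 CPM (-0.17). Trim30a was at 118 and 103 CPM (-0.20) and Parp14 at 49.4 and 45.8 CPM (-0.11). None of the 5 intervals included 0, although Dtx3l was on the other side of 0 when each cell was thinned to 1000 UMIs.

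The sensors of viral nucleic acid were mixed. Dhx58, which encodes the RIG-I-like regulator LGP2, was at 7.21 CPM in CTRL against 5.01 in DHEA, giving a log2 ratio of -0.52 (-0.76 to -0.29), and Eif2ak2, the RNA-activated kinase PKR, at 24.1 and 18.2 CPM, a ratio of -0.40 (-0.53 to -0.28). Ifih1, the RNA sensor MDA5, was higher, at 16.1 and 18.7 CPM, a ratio of 0.22 (0.08 to 0.36). Zbp1, which senses left-handed nucleic acid, was at 44.4 and 41.6 CPM, a ratio of -0.09. LGP2 and MDA5 belong to 1 protein family, and their transcripts lay on opposite sides of 0.

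Of the antiviral effectors, Rsad2 (viperin, which makes a chain-terminating nucleotide) was at 3.94 CPM in CTRL against 2.82 in DHEA, giving a log2 ratio of -0.48 (-0.81 to -0.16), and Cmpk2, a nucleotide kinase of mitochondria, at 5.04 and 4.11 CPM, a ratio of -0.29 (-0.57 to -0.02). Bst2 (tetherin, which holds budding virus at the membrane) was at 117 and 128 CPM, a ratio of 0.13 (0.07 to 0.18). Samhd1, which depletes nucleotides, was at 199 and 175 CPM, a ratio of -0.18 (-0.22 to -0.14). Mx1 was at 5.36 and 5.87 CPM and Isg20, a nuclease of RNA, at 10.4 and 9.90 CPM, both with intervals that included 0. Ifi27l2a was the most abundant of the 40 and was at 280 CPM (275 to 284) in CTRL against 199 (195 to 202) in DHEA, a ratio of -0.49 (-0.53 to -0.46). Among the transcription factors, Irf9 was at 40.8 and 33.3 CPM, a ratio of -0.29 (-0.39 to -0.20), while Stat2 (-0.11) and Irf7 (0.04) had intervals that included 0. Rtp4 (-0.18) and Xaf1 (-0.13) were slightly lower.

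The genes around the pathway were also mixed. No transcript of Ifnb1, Ifna1 or Ifna4 was found in either library, and Ifna2 had 0 UMIs in CTRL and 3 in DHEA. Of 9 ligand genes 1 was measured, Ifng, at 8.57 CPM in CTRL against 14.02 in DHEA, giving a log2 ratio of 0.71 (0.53 to 0.89). Of 13 receptor and signalling genes 5 were higher and 8 lower, with Socs3 at 0.76 and Socs1 at 0.57, both feedback inhibitors, and Ifngr1 at 0.56. All 5 measured genes of the IRF family outside the 40 were higher, from Irf4 at 0.01 to Irf8 at 0.36, although the intervals of Irf3 and Irf4 included 0. Of 10 measured sensor genes 4 were higher, and the 4 with the widest ratios were Tlr7 at 0.71, Tbk1 at -0.30, Adar at -0.30 and Mavs at 0.26. Of 42 other interferon-stimulated genes 20 were higher and 22 lower, with Ly6a at 1.64, Ms4a4c at 0.99, Phf11a at 0.73 and Ifi47 at 0.53. Both SOCS inhibitors were thus higher in the DHEA library.

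A small group of cells held many interferon transcripts in both libraries. Each cell of at least 2000 UMIs was thinned to 2000, which left out 231 CTRL and 1862 DHEA cells, and UMIs of 7 genes (Ifit1, Ifit3, Ifit3b, Isg15, Rsad2, Oasl1 and Cmpk2) were summed. A cell was called responding with at least 3 of these UMIs from at least 2 of the genes. In CTRL 182 of 8486 cells qualified (2.14%, exact 95% interval 1.85% to 2.48%) and in DHEA 144 of 8837 (1.63%, 1.38% to 1.92%). The share in DHEA was 0.760 times that in CTRL (0.606 to 0.951, counting error only). No UMI of the 7 genes was found in 85.3% of CTRL cells and 81.8% of DHEA cells, so DHEA had more cells with 1 or 2 such UMIs and fewer with many.

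**Figure D2:**
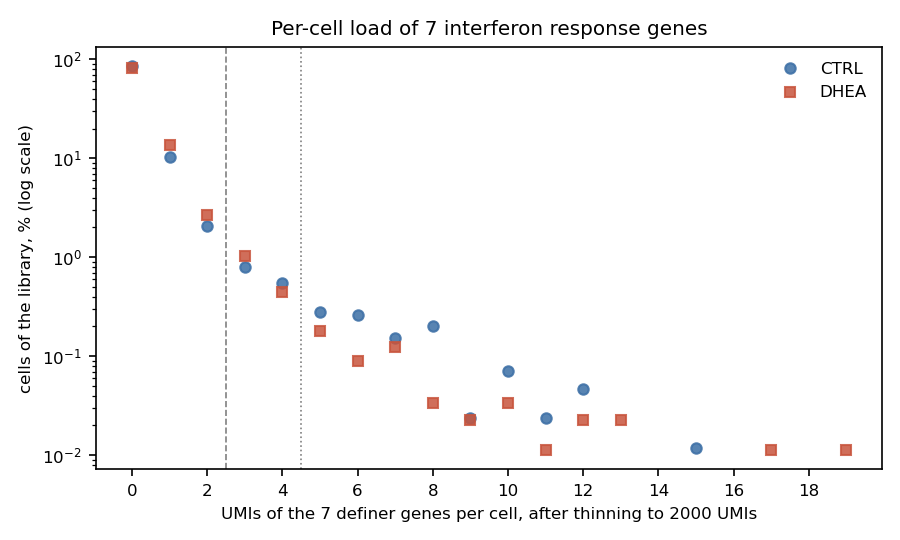
Percent of cells in each library (vertical axis, log scale) with a given number of UMIs of the 7 defining genes after thinning to 2000 UMIs; counts that no cell had are not drawn. DHEA lay above CTRL at 1, 2 and 3 UMIs (13.5% against 10.2% at 1 UMI), and CTRL above DHEA from 4 to 8 UMIs; dashed and dotted lines mark cuts of 3 and 5 UMIs.

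The difference in share depended on where the line was drawn. With at least 5 UMIs, 88 CTRL cells (1.04%) and 46 DHEA cells (0.521%) remained, a ratio of 0.502 (0.344 to 0.725). With at least 2 UMIs the ratio was 0.929 (0.783 to 1.10), an interval that included 1. Cells near the line were common: 175 CTRL and 235 DHEA cells had 2 such UMIs, and of the responding cells 49 and 66 had 3. Isg15 carried a large part of the call, since without it 85 and 52 cells qualified, a ratio of 0.587 (0.408 to 0.839, chosen after seeing the data). A second set of 7 genes (Irf7, Usp18, Rtp4, Oasl2, Bst2, Zbp1 and Mx1) gave 3.35% and 2.82%, a ratio of 0.842 (0.707 to 1.002), an interval that included 1. It included 97 of the 182 CTRL cells (53.3% of these and 34.2% of its own) and 57 of the 144 DHEA cells (39.6% and 22.9%). The median depth was 5958 UMIs in responding and 5680 in other CTRL cells, and 4828 and 5266 in DHEA, and no shared barcode was among the responding cells. The responding cells held 12.1 and 2.77 CPM of myeloid markers and 4.64 and 5.54 CPM of plasmacytoid dendritic cell markers in CTRL and DHEA.

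The other 33 genes, which took no part in the definition, were all higher in responding cells than in the remaining cells of the same library, and 32 of 33 were at least 2-fold higher in each library. Of the 6219 genes with enough UMIs, 2.65% reached 2-fold in CTRL and 2.03% in DHEA. The median fold was 5.05 in CTRL and 3.97 in DHEA. Slfn2 was the exception to 2-fold, at 1.94 and 1.46. Mx1 stood at 96.5 CPM in responding and 3.33 CPM in other CTRL cells (29.0-fold, 22.4 to 37.4). In DHEA it stood at 72.0 and 4.79 CPM (15.03-fold, 10.9 to 20.4). A defining gene was read in cells chosen by the other 6. On that basis Rsad2 had the steepest contrast, at 114 against 1.59 CPM in CTRL (71.7-fold) and 76.9 against 1.70 CPM in DHEA (45.3-fold). Ifi27l2a, the most abundant gene over all cells, differed by 2.32-fold and 2.46-fold. Among the 31 genes with a promoter window, holding the ISRE letters went with nearly the same median fold (6.31 in CTRL and 5.25 in DHEA over 17 genes) as not holding them (6.04 and 4.82 over 14).

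The share of each gene's UMIs that responding cells carried was lower in DHEA for 40 of 40 genes, beside 92.8% of the 6219 genes. Responding cells held 2.21% of all UMIs in CTRL and 1.53% in DHEA, so a lower share for all 40 is near what genes in general showed. Rsad2 had 60.2% of its UMIs in the responding cells of CTRL and 40.6% in those of DHEA, Ifit3b 45.1% and 21.0%, Mx1 39.5% and 18.9%, and Ifit3 36.7% and 16.0%. Usp18 had 27.6% of its UMIs there in CTRL and 9.83% in DHEA. At the low end Slfn2 had 4.20% and 2.22%, and Irf9 4.64% and 3.98%. The fold of responding over other cells was lower in DHEA for 34 of 40, beside 49% of the 6219 genes. The fold does not use the number of cells, but both of its sides come from cells sorted by defining UMIs. More DHEA than CTRL cells lay below the cut with 1 such UMI (13.5% against 10.2%) or 2 (2.66% against 2.06%). This can by itself lower the fold of the 40 genes in DHEA, so the 49% is no matched comparison. Its part was not tested.

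**Figure D3:**
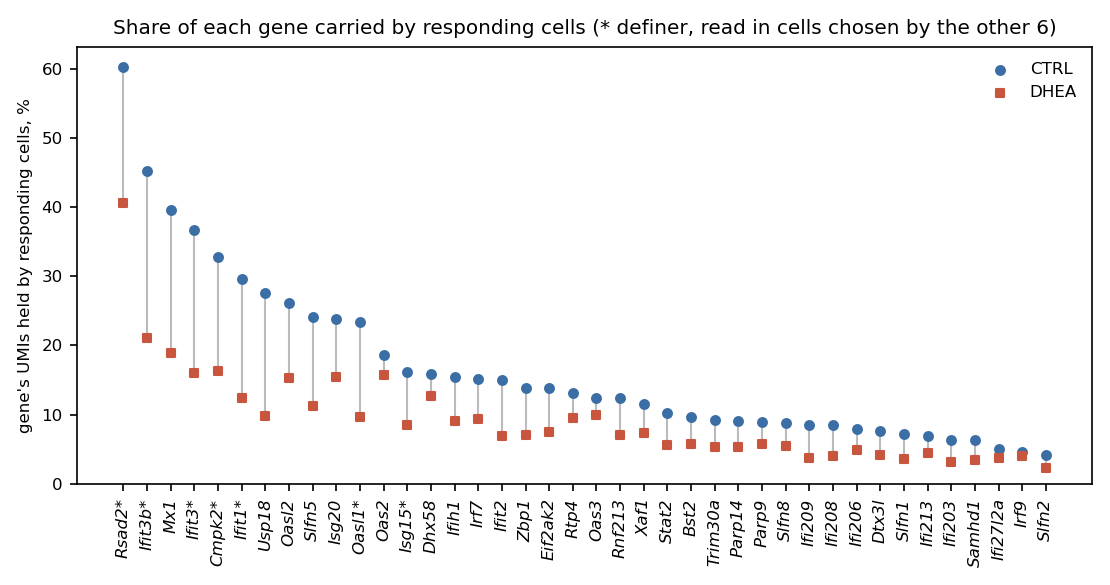
Percent of each gene's UMIs held by responding cells (vertical axis) in the CTRL library (circles) and the DHEA library (squares), ordered by CTRL; an asterisk marks a defining gene, read in cells chosen by the other 6. The DHEA value lay below the CTRL value for all 40 genes, as for 92.8% of the 6219 genes with enough UMIs, from 60.2% against 40.6% in Rsad2 to 4.20% against 2.22% in Slfn2.

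Genes outside the 40 were then ranked by their fold in responding cells, taking the lower of both libraries. T cell receptor, immunoglobulin, mitochondrial, Y-linked and unnamed genes and Xist were left out beforehand. The 10 highest among the remaining 5990 genes with at least 30 UMIs in responding cells were named as the most alike in pattern. They were Mx2 (18.5-fold in CTRL and 12.6-fold in DHEA), Parp12 (7.62 and 7.31), Oas1a (9.97 and 6.998), Cxcl10 (8.35 and 6.95), Gbp6 (6.66 and 6.82), Iigp1 (8.93 and 6.36), H2-T24, Ddx60, Phf11a and Pml. Of these 10 genes 6 stood in the pathway lists. Cxcl10, a chemokine that draws CXCR3-bearing cells, was at 12.2 CPM over all CTRL cells and 19.5 CPM over all DHEA cells.

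Within responding cells most of the 40 genes were lower in DHEA, a pattern that the cut itself can partly build in. Of the 40, 3 were higher and 37 lower, 1 at least 1.5-fold higher (Oas2) and 8 at least 1.5-fold lower, beside 3.98% higher and 4.39% lower by that size among 4624 genes with at least 50 UMIs in these cells, of which 50.6% were higher and 49.4% lower by any amount. The 8 genes were Slfn5, Rnf213, Eif2ak2, Cmpk2, Ifit3b, Oasl1, Ifit1 and Slfn8. The median log2 ratio of the 40 was -0.40. Of the 8, Cmpk2, Ifit3b, Oasl1 and Ifit1 are defining genes. Of the 33 other genes of the 40, 2 were higher and 31 lower, with a median of -0.36. In DHEA a larger part of responding cells lay at the minimum of 3 defining UMIs, 66 of 144 against 49 of 182 in CTRL. This can by itself lower genes that rise with the defining ones, so all genes are no matched comparison. Its part was not tested. Slfn5 was at 332 CPM (299 to 368) in the responding cells of CTRL and 170 CPM (142 to 203) in those of DHEA, a ratio of -0.96 (-1.27 to -0.66). Rnf213 was at 489 and 270 CPM, a ratio of -0.86 (-1.10 to -0.62). Isg15 stood apart, at 984 and 1126 CPM, a ratio of 0.19 (-0.02 to 0.40). The pattern was weaker under other definitions. Among cells with at least 5 UMIs 15 of 38 genes were higher and 4 lower by 1.5-fold, with a median of -0.09. With Isg15 left out of the definition 9 of 38 were higher and 5 lower by 1.5-fold, with a median of -0.30. In these 2 alternatives 15 and 9 genes took another sign than in the main definition. Both of these alternatives were chosen after seeing the data.

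Outside the responding cells the tonic level was nearly balanced. Of 39 genes with at least 200 UMIs there, 19 were higher in DHEA and 20 lower, against 49.2% and 50.8% of 10441 genes, and the median log2 ratio was -0.01. Usp18, Ifit2 and Oas2 were at least 1.5-fold higher (1.86% of all genes were) and none was that much lower (1.44% of all genes were). Usp18 was at 16.7 CPM (15.6 to 17.9) in CTRL against 32.2 (30.5 to 33.8) in DHEA, giving a log2 ratio of 0.94 (0.82 to 1.07). Ifit2 was at 17.1 and 26.9 CPM, a ratio of 0.66 (0.53 to 0.79), which was 0.55 without the cytokine-bearing cells described below, so that 2 genes were then at least 1.5-fold higher. Leaving out the responding cells thus widened the difference in Usp18, whose UMIs in CTRL lay to a larger part in that group. Ifit3 went from -0.04 over all cells to 0.33 (0.18 to 0.48) outside, from 13.9 CPM in CTRL to 17.5 CPM in DHEA. Ifit1 went from -0.15 to 0.14 (0.01 to 0.27), and Mx1 from 0.13 to 0.53 (0.23 to 0.83). Isg15 was at 53.4 and 68.0 CPM outside, a ratio of 0.35 (0.28 to 0.43). Abundant genes had nearly the ratios they had over all cells: Ifi27l2a was at 271 and 195 CPM (-0.48), Rnf213 at 77.5 and 55.7 CPM (-0.48), and Slfn8 at 52.8 and 39.8 CPM (-0.41).

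Outside the responding cells the direction went with how steeply a gene marked them, a link that the cut itself partly builds in. The genes were grouped by the geometric mean of the folds in both libraries, with limits of 10 and 5 set after the values were seen. Of 13 genes with a fold of at least 10, 12 were higher in DHEA outside the group (median log2 ratio 0.27, exception Slfn5 at -0.17). Of these 13, 7 are defining genes, each read outside cells chosen by the other 6, with 7 of 7 higher, and of the remaining 6 genes 5 were higher (median 0.46). Over all cells, by contrast, 2 of the 7 defining genes were higher and 5 lower (median -0.15). Of the remaining 6, Slfn5 and Isg20 were lower over all cells. Of 10 genes with a fold from 5 to under 10, 3 were higher (median -0.10), and of 17 with a fold under 5, 5 were higher (median -0.13). With responding cells defined by at least 5 UMIs, 8 of 12 in the steepest group were higher (median 0.14). With at least 2 UMIs 11 of 12 were higher (median 0.32), and with the second set of 7 genes 10 of 12 (median 0.17). These 12 leave out Rsad2, which is among the 13 with only 76 CTRL and 79 DHEA UMIs outside. In the main definition Rsad2, Ifit3b, Cmpk2 and Isg20 were higher with intervals that included 0. The steep genes were also the scarcer ones outside, with a median of 5.69 CPM in CTRL against 98.1 CPM in the flattest group, and the limits and the fold rest on the same cells as the ratio. Responding cells held 16.2% to 60.2% of the steep genes' UMIs in CTRL and 8.52% to 40.6% in DHEA. Leaving these cells out therefore raised the ratios of the steep genes by itself. The link with steepness is thus no independent result on the remaining cells.

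**Figure D4:**
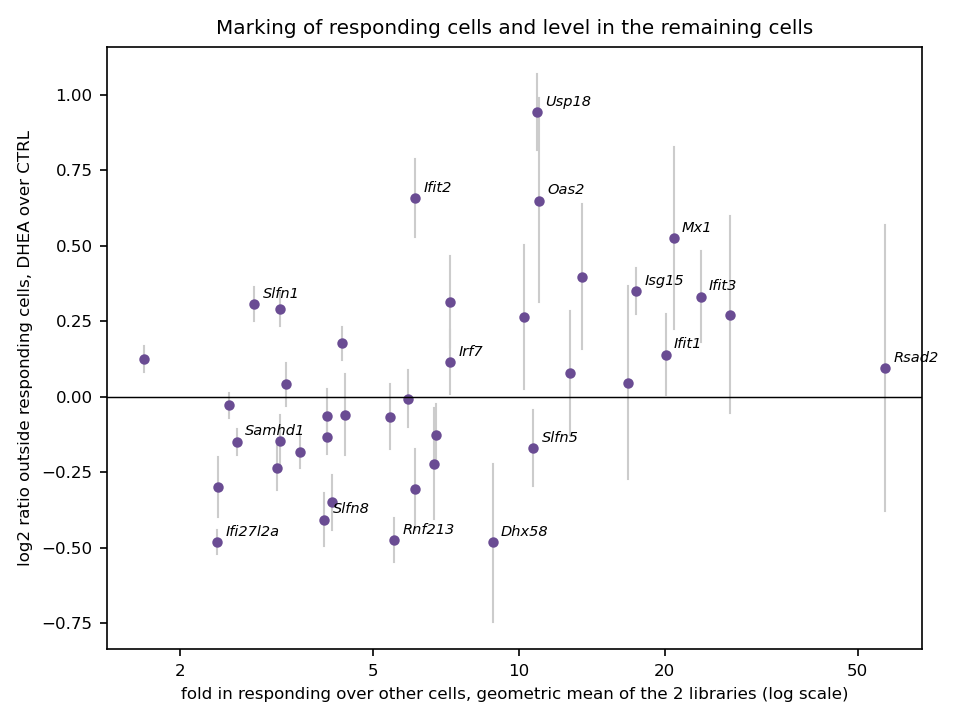
Log2 ratio of CPM outside responding cells, DHEA over CTRL (vertical axis, bars exact 95% counting intervals), against the fold in responding over other cells (horizontal axis, geometric mean of both libraries, log scale), 1 point per gene. Usp18 lay highest at 0.94, and of the 13 genes at 10-fold or more, 7 of them defining genes read outside cells chosen by the other 6, only Slfn5 lay below 0. Over all cells 5 of the 7 defining genes lay below 0.

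Ifit2 was also high in another group of cells. Cells with at least 2 UMIs of Tnf, Ccl3, Ccl4 or Ifng, genes of recently stimulated T cells, made up 157 of 8486 CTRL cells (1.85%) and 423 of 8837 DHEA cells (4.79%). This set was chosen after the cells richest in Ifit2 had been looked at. Of them 7 (4.46%) and 11 (2.60%) were also responding cells, beside 2.14% and 1.63% of all cells. Ifit2 was at 84.0 CPM in them and 18.4 CPM in the rest of CTRL (4.57-fold, 3.56 to 5.78), and at 72.1 and 26.1 CPM in DHEA (2.76-fold, 2.34 to 3.24). Cxcl10 was 7.21-fold and 3.80-fold higher in them, and Isg15 1.95-fold and 1.70-fold, whereas Usp18 was 1.84-fold higher in CTRL and 0.922 times the rest in DHEA. Outside both groups of cells no gene had another sign than outside the responding cells alone.

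The libraries differed in their shares of cells with memory transcripts, so the genes were also read within cells rich or poor in Ccl5, a chemokine of memory and effector CD8 T cells. Cells of at least 1000 UMIs were thinned to 1000, and at least 2 Ccl5 UMIs counted as rich. Ccl5-rich cells made up 10.2% of CTRL and 22.3% of DHEA. In Ccl5-rich cells 31 genes were measured, 7 higher in DHEA and 24 lower, beside 48.4% higher and 51.6% lower of all genes, 0 at least 1.5-fold higher (1.32% of all) and 5 that much lower (1.4% of all), with a median log2 ratio of -0.17. In Ccl5-poor cells 14 of 40 were higher and 26 lower, beside 49% and 51% of all genes, 2 at least 1.5-fold higher (Usp18 and Oas2, 1.17% of all) and 0 that much lower (1.15% of all), with a median of -0.11. The genes lower by 1.5-fold in Ccl5-rich cells were Slfn5, Rnf213, Eif2ak2, Parp9 and Slfn8.

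**Figure D5:**
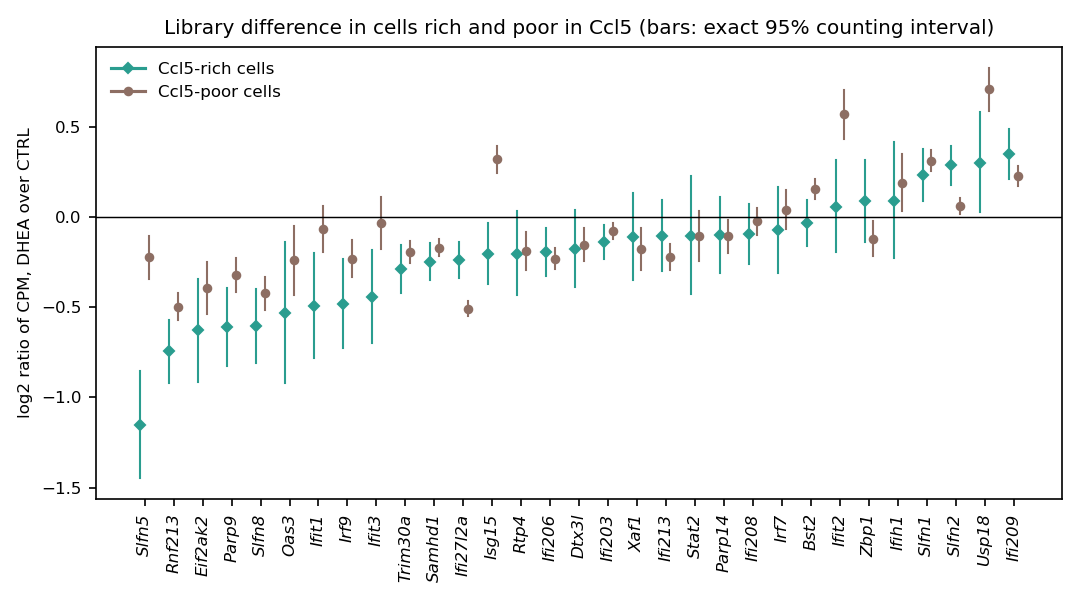
Log2 ratio of CPM, DHEA over CTRL (vertical axis, bars exact 95% counting intervals), in Ccl5-rich cells (diamonds) and Ccl5-poor cells (circles) for the 31 genes measured in both, ordered by the ratio in Ccl5-rich cells. Slfn5 lay lowest in Ccl5-rich cells at -1.15 and at -0.22 in Ccl5-poor cells.

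Slfn5 was at 33.6 CPM in Ccl5-rich CTRL cells and 15.1 CPM in Ccl5-rich DHEA cells, giving a log2 ratio of -1.15 (-1.45 to -0.85), but at 29.9 and 25.6 CPM in Ccl5-poor cells, a ratio of -0.22 (-0.34 to -0.10). The intervals of the 2 ratios did not overlap, and the difference itself was not tested. Usp18 was higher in both, at 26.0 and 32.2 CPM in Ccl5-rich cells (0.30, 0.03 to 0.58) and 22.0 and 36.0 CPM in Ccl5-poor cells (0.71, 0.59 to 0.83). Ifit2 was at 32.0 and 33.4 CPM in Ccl5-rich cells (0.06, -0.19 to 0.32) and at 17.8 and 26.5 CPM in Ccl5-poor cells (0.57, 0.43 to 0.71), but with at least 1 Ccl5 UMI as the limit the ratios were 0.40 and 0.43. Ifi27l2a was lower in both, at -0.24 and -0.51.

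Set against Ccl5-poor cells of the same library, Ccl5-rich cells were higher for 25 of 40 genes in CTRL and for 18 of 40 in DHEA, beside 48.7% and 48.5% of all genes. In CTRL 5 were at least 1.5-fold higher (Ifit2, Ifit3, Ifit3b, Cmpk2 and Mx1, where 4.72% of all genes were) and 0 that much lower (4.05% of all). In DHEA 0 were at least 1.5-fold higher (4.19% of all) and 3 were that much lower (Slfn5, Oas2 and Isg20, where 2.91% of all genes were). Ifit3 was at 35.3 CPM in Ccl5-rich and 19.6 CPM in Ccl5-poor cells of CTRL, and at 26.0 and 19.2 CPM in those of DHEA. The sign of this contrast was shared by both libraries for 29 of 40 genes, beside 69.3% of all genes. All 40 were counted here, whereas the shares over all genes take genes with at least 200 UMIs in the compared cells. Rsad2 fell short of that minimum in both libraries and Oas2 in CTRL.

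Responding cells were 30 of 865 Ccl5-rich cells in CTRL (3.47%, 2.35% to 4.91%) and 34 of 2012 in DHEA (1.69%, 1.17% to 2.35%), and 1.99% and 1.61% of Ccl5-poor cells. Among Ccl5-poor cells, those with a UMI of Ly6c2, a surface gene of CD8 T cells that have met cytokine or antigen and itself inducible by interferon, held 3.16% and 1.92% responding cells, and those without held 1.80% and 1.49%. Within each library the Ly6c2 cells were higher for 30 of 40 genes in CTRL (38.4% of all genes were), 5 of them by 1.5-fold (1.64% of all genes were) and 0 that much lower (1.77% of all). In DHEA they were higher for 24 of 40 (38.8% of all genes were), 3 of them by 1.5-fold (1.09% of all genes were), with 1 that much lower (1.05% of all). Of the 40, 34 had the same sign in both libraries, beside 68.6% of all genes. All 40 were counted here, whereas the shares over all genes take genes with at least 200 UMIs in the compared cells. Among the genes higher by 1.5-fold, Rsad2 and Cmpk2 in CTRL and Rsad2 and Mx1 in DHEA fell short of that minimum. Rsad2 was at 6.96 CPM in Ly6c2 cells and 3.21 CPM in the rest of CTRL, and at 3.95 and 2.23 CPM in DHEA. Mx1 was at 7.97 and 4.19 CPM in CTRL, and at 7.45 and 4.38 CPM in DHEA. Isg20 was at 9.28 and 10.7 CPM in CTRL, a log2 ratio of -0.20 with an interval that included 0 (-0.61 to 0.18), and at 7.63 and 12.1 CPM in DHEA, a ratio of -0.67 (-1.03 to -0.31). Cells that carried Ly6c2 thus held more Rsad2 and Mx1 in each library, from few UMIs. The log2 ratios of Rsad2 were 1.12 (0.60 to 1.61) in CTRL and 0.83 (0.23 to 1.42) in DHEA. Those of Mx1 were 0.93 (0.46 to 1.38) and 0.77 (0.34 to 1.19). In DHEA, Rsad2 had 43 UMIs in Ly6c2 cells and 60 in the rest. Lower in Ly6c2 cells were 10 of the 40 genes in CTRL and 16 in DHEA.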

How the data were processed

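The deposited values are raw UMI counts for each gene in each cell barcode, and Cell Ranger 8.0.1 produced them, per the file headers. Seurat 4.3.0 and mm39 are named in the submitters' processing notes. No barcode filter by the authors is described in the labels. The chemistry was 10x Genomics 3′ v3.1 per the labels. UMIs were summed over gated cells and expressed as CPM. A gene counted as measured from 200 UMIs over the pair of libraries. Log2 ratios carry exact 95% intervals from the split of both counts, shares exact Clopper-Pearson intervals, and CPM values exact Poisson intervals. With 1 library per group no model was fitted, and 1.5-fold is a rule of size. Gated cells of the libraries summed to 49239407 (CTRL) and 50077687 (DHEA) UMIs.

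Doublets were not called; as an alternative, 608 CTRL and 916 DHEA cells of highest depth were left out. Python 3.11.15 was used with matplotlib 3.10.9, pandas 2.3.3, numpy 2.4.6 and scipy 1.17.1. TMM factors came from edgeR 4.0.16 in R 4.3.3. Steps were tested on simulated data. The 40 genes and the lists were chosen with earlier results of these data known. Every one of the 40 could be named, with up to 4 genes of widest ratio per other list and 10 genes of like pattern; some are not reported here. The family grouping, the limits of fold, the 50-UMI minimum inside responding cells, the cytokine set and the printed promoters were chosen after values were seen. Alternatives concerned scaling, minimum counts, depth, gate, mitochondrial limit, shared barcodes, depth outliers, other lineages, ribosomal share, Ccl5 strata, genomic span and the definitions of cell groups.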

Additional observations from a re-analysis of the deposited data

Results flagged for a closer look

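Isg15 took opposite directions in the cells rich and poor in Ccl5. In Ccl5-rich cells it was at 76.3 CPM in CTRL against 66.2 in DHEA, giving a log2 ratio of -0.20 (-0.37 to -0.03). In Ccl5-poor cells it was at 61.4 CPM in CTRL against 76.7 in DHEA, giving a log2 ratio of 0.32 (0.25 to 0.40). Both intervals exclude 0 and cover counting error only. They take UMIs as spread independently over cells. Over all gated cells thinned to 2000 UMIs, the variance of Isg15 per cell was 1.95 times its mean in CTRL and 1.79 times in DHEA. The intervals are thus too narrow for the spread between cells, and that of Ccl5-rich cells ends near 0. The difference between the ratios was not tested, since each group has 1 library.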

How the results depend on the processing

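Of the 40 genes, 33 kept 1 sign over all cells under all 13 alternatives (9 higher in DHEA, 24 lower), and Irf7, Ifit3, Slfn2, Oasl1, Dtx3l, Mx1 and Isg20 took both signs. The count at least 1.5-fold higher was 1, without Oas2, with a minimum of 1000 UMIs (Oas2 has fewer), with a mitochondrial limit of 5%, and without cells under 10% ribosomal protein UMIs (Oas2 at 0.55 in both). The count at least 1.5-fold lower was 2 with each cell thinned to 1000 UMIs, 1 as a mean of per-cell fractions and 2 after subtracting the median ratio of genes with similar genomic span. That last step turned Irf7, Slfn2 and Oasl1, and the median ratio of all genes ran from 0.11 in the fifth of shortest span to -0.15 in the fifth of longest; the cause was not tested. TMM factors of 1.01 and 0.992 turned no sign. The ratio of responding shares was 0.502 with at least 5 UMIs and 0.587 without Isg15. Outside responding cells the median turned to 0.00251 with at least 2 UMIs. Inside them, 15 and 9 genes were higher and 4 and 5 were at least 1.5-fold lower under the 2 added definitions. With at least 1 Ccl5 UMI as the limit, 1 gene was at least 1.5-fold lower in Ccl5-poor cells. No paired analysis was possible because each group has 1 library. Depth limits the scarce genes: Rsad2 had 194 and 141 UMIs, and outside responding cells its ratio of 0.10 had an interval of -0.38 to 0.57.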
